A study of Mus musculus with 6 samples.

Results

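The miR-26 family was described in 6 small RNA-seq libraries of whole embryonic mouse brain, 3 from females and 3 from males, all wild-type C57BL/6 at E15.5. Its 5 members were taken by name from the 1915 mature miRNAs listed in each library, namely mmu-miR-26a-5p, mmu-miR-26b-5p, mmu-miR-26a-1-3p, mmu-miR-26a-2-3p and mmu-miR-26b-3p. Embryos were sexed by the presence or absence of testicular cords, and by the study's methods each library was made from the RNA of 2 to 3 embryos, so that pools and not embryos are the replicates. The study's question was whether miRNA levels differ between the sexes in the developing brain. Levels are given as CPM, counts per 1000000 reads on miRNAs in the same library, and values of a sex follow the order of its libraries 1, 2 and 3.

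A precursor hairpin of a miRNA is cut into a duplex, of which 1 strand, the guide, is loaded into Argonaute, while the other, the passenger, is mostly degraded. The guide finds target mRNAs through its seed, bases 2 to 8. In this family the guides are the 5p arms, and the precursors lie in introns of genes for small C-terminal domain phosphatases (Ctdsp1, Ctdsp2 and Ctdspl), which act with the repressor REST to keep neuronal genes silent outside neurons and in neural progenitors. miR-26 is also known to repress its own host Ctdsp2 during neuronal differentiation, and to target the Polycomb methyltransferase Ezh2 in other cells.

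The mature sequences, from RefSeq (GRCm38.p6), are shown 5′ to 3′ with the seed in capitals, because the seed decides which members count as 1 family of guides and which do not.
miR-26a-5p: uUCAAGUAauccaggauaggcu
miR-26b-5p: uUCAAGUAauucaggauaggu
miR-26a-1-3p: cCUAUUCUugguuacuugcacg
miR-26a-2-3p: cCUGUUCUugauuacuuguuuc
miR-26b-3p: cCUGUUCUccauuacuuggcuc

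Both guides carried the seed UCAAGUA, and no other of the 1623 listed miRNAs with a sequence did. Counted from the 5′ end, miR-26a-5p and miR-26b-5p differed by C11U and C21U over the 21 bases they share, and miR-26a-5p had 1 more base at its 3′ end. Whether reads with a mismatch there could be counted for the other guide depends on a setting that is not given in the sources used here. Among the passengers, miR-26a-2-3p and miR-26b-3p shared CUGUUCU, and miR-26a-1-3p differed from miR-26a-2-3p inside the seed by A4G. Of the other listed miRNAs with CUGUUCU, miR-6932-3p had reads in 1 library and miR-7039-3p in none.

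The hairpins are shown with both mature arms in capitals, since miR-26a-5p is the same in 2 of them and only the 3p arms separate these loci.
Mir26a-1: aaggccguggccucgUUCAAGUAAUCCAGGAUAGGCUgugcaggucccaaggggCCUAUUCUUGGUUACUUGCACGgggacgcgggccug
Mir26a-2: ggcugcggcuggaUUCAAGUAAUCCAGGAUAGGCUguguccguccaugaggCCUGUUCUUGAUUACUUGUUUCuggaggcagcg
Mir26b: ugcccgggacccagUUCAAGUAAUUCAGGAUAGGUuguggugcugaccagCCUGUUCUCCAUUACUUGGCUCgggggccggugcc

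On mm9 (NCBIM37, the authors' build), whose sequence equals that of each RefSeq hairpin, Mir26a-1 lies at chr9:118940914-118941003, Mir26a-2 at chr10:126432586-126432669 and Mir26b at chr1:74440884-74440968. All 3 are on the forward strand, as are their hosts. By GENCODE vM1, Mir26a-1 is in an intron of Ctdspl in 3 of its 4 transcripts, intron 5 of 7 in the transcript with the most exons. Mir26b is in intron 4 of 6 of the Ctdsp1 transcript with the most exons, and in an intron of 2 of 3 transcripts. Mir26a-2 is in intron 5 of 7 of the longer Ctdsp2 transcript and overlaps an exon of the shorter one. Host mRNA levels are not analysed here.

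Total reads on miRNAs ranged from 14802675 to 59362011 per library. Female library 2 was the deepest and listed reads for the fewest miRNAs, 660 against 790 to 915 in the other 5 libraries. All 5 brain markers (miR-9-5p, miR-124-3p, miR-128-3p, miR-137-3p and miR-219a-5p) had reads, with a summed level of 193196 to 211894 CPM in females and 162405 to 187909 CPM in males, and 1 of the 5 was called, higher in females (2 of 5 without female library 2, with DESeq2, with 1 RUVr factor in edgeR or with at least 10 reads in every library, and 3 of 5 with 1 RUVr factor in DESeq2). Markers of other tissues were also present and differed by sex. All 4 skeletal muscle miRNAs, with summed levels of 388 to 1180 CPM in females and 5497 to 6139 CPM in males, and 5 of 6 epithelial miRNAs (428.5 to 1133 and 7989.5 to 8284 CPM) rose in males. So did 4 of 5 mesenchymal and cartilage miRNAs (4515 to 12642 and 19307 to 23097 CPM). The one not called, miR-140-5p, had a log2 fold change, male over female, of -0.39. The other arm of its hairpin, miR-140-3p, had 0.77. Of 4 red blood cell miRNAs, only miR-486a-5p was called, with a log2 fold change of 0.80 (adjusted p = 0.0471 in edgeR's quasi-likelihood test), and it made up most of the list's sum (673 to 1367 and 1605 to 1984 CPM). The others, of lower level, had 0.18 for miR-451a, -0.74 for miR-144-5p and -0.97 for miR-144-3p, and the list's median was -0.28. Higher in females were 2 of 4 Hox cluster miRNAs of hindbrain and spinal cord (8613 to 12290.4 and 1659 to 2055 CPM) and 2 of 4 blood vessel miRNAs (7714 to 14683 and 6031 to 8155 CPM). The Hox miRNAs not called, miR-196a-5p and miR-196b-5p, had means of only 0.68 and 0.22 CPM. The vessel miRNAs called were miR-126a-3p and miR-126a-5p, arms of 1 hairpin, with log2 fold changes of -0.91 and -0.90. Of the vessel miRNAs not called, miR-143-3p had -0.61 and miR-145a-5p, in the other direction, 0.49. Of all 1120 miRNAs tested, 36 were called higher in males and 59 (5.27%) higher in females. No marker was at 0 in all libraries. Without female library 2 the counts called in these directions were 4 of 4, 5 of 6, 4 of 5, 1 of 4, 2 of 4 and 3 of 4 in the same order. In that setting 1 of 5 mesenchymal miRNAs was called in the other direction, higher in females. The vessel count was 0 with scaling by library size and without female library 3 or male library 1, and 1 without male library 3. The red blood cell call was lost without female library 1, female library 3 or male library 1, and also with upper quartile scaling, the GC offset or at least 10 reads in every library. Without female library 3 or male library 1, 2 of 4 skeletal muscle miRNAs were called, and without male library 1, 2 of 5 mesenchymal ones. The part of these tissues in the miR-26 values was not tested, and in whole brain RNA fewer cells of a type cannot be told apart from less RNA per cell.

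The guides were among the abundant miRNAs of the E15.5 brain. miR-26a-5p was the 9th most abundant miRNA by mean CPM and miR-26b-5p the 28th, and the rank of miR-26a-5p stayed between 7 and 12 in the single libraries. miR-26a-5p had 23589.6, 22812 and 21969.7 CPM in the females, and 25262, 28792 and 24576 CPM in the males. Its 3 male libraries lay above its 3 female libraries on this scale, with male library 2 highest. The highest value was 1.31 times the lowest. With 349189 to 1354187 reads behind each value, the exact (Clopper-Pearson) 95% interval was at most 0.328% of the value to either side, which covers counting error only since reads without molecular identifiers are not independent molecules.

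miR-26b-5p had 6934 CPM, 6426 CPM and 7482 CPM in the females, and 7532 CPM, 7817 CPM and 6202 CPM in the males. Here the sexes overlapped, and both the highest and the lowest value were male. In each library miR-26a-5p was the more abundant guide, by 2.94-fold in female library 3 to 3.96-fold in male library 3. It therefore made up 77.6% ± 1.78 (SD, n = 6) of the reads with the family's seed, from 74.6% to 79.8%.

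**Figure D1:**
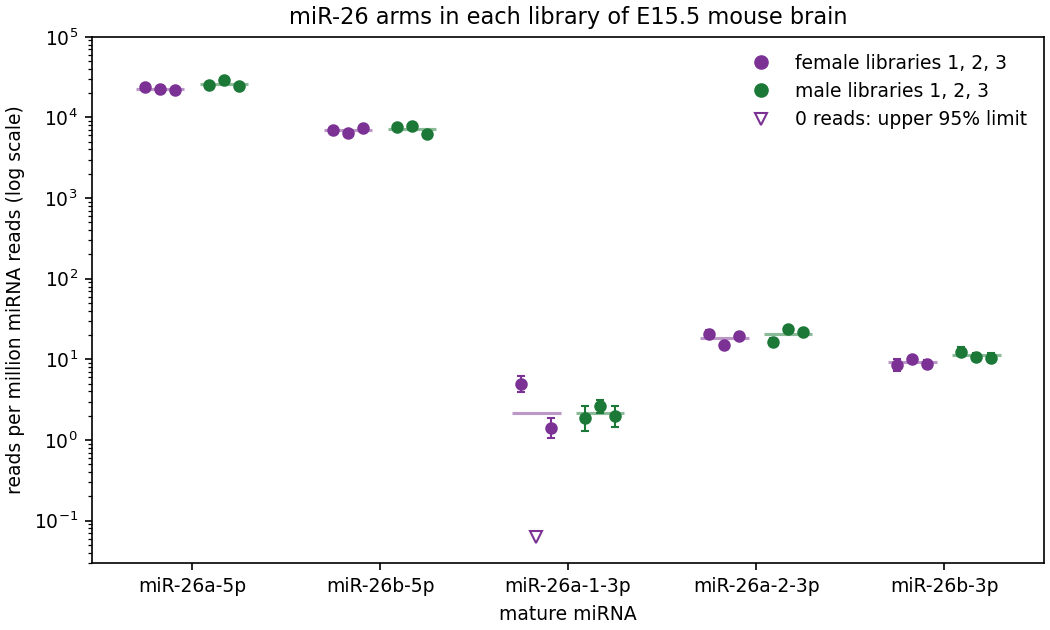
CPM (log axis) of the 5 miR-26 arms, 1 point per library, with females in purple and males in green, bars on points for the exact 95% counting interval and horizontal lines for the mean of 3 libraries. The 5p arms lie near 24500 and 7066 CPM and the 3p arms between 1.42 and 23.7 CPM, apart from the open triangle, the upper limit by counting error alone for 0 reads of miR-26a-1-3p in female library 2.

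In the order of mean levels, the neighbours of each guide did not stand clear of it. miR-99b-5p, next above miR-26a-5p at 26017 ± 3487 CPM (SD, n = 6), was above it in 4 of 6 libraries, and let-7i-5p, next below at 23627 ± 2279 CPM (SD, n = 6), was above it in 1. miR-92b-3p, next above miR-26b-5p at 7073 ± 1761 CPM (SD, n = 6), lay above it in 4 of 6 libraries, and the neuronal miR-128-3p, next below at 6798 ± 369.7 CPM (SD, n = 6), in 2.

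Grouped by seed, the listed miRNAs with a sequence gave 1352 families, and miR-26 was the 8th by summed level, with 3.16% of all reads. The miRNAs with a sequence held 93.8% of reads, and the others entered no family, so the sums and ranks of families can be incomplete. The summed guides had 30524, 29239 and 29452 CPM in the females, and 32794, 36609 and 30778 CPM in the males. That is 29738 ± 689 CPM (SD, n = 3) for the females and 33394 ± 2961 CPM (SD, n = 3) for the males, by library size. The 6 libraries had a coefficient of variation of 8.79%, the third smallest among the 12 most abundant seed families. Of 2 broadly expressed families picked for comparison, let-7 (11 miRNAs) had 6.26% around 128488 CPM. The other, miR-30 (4 miRNAs), 1 rank above miR-26 at 33938 CPM, had 21.9%. The seed family of miR-103-3p, with 2 miRNAs like miR-26, had 7.99%. With TMM scaling the values were 10.9% for miR-26, 10.7% for let-7, 23.5% for miR-30 and 7.69% for the miR-103-3p family, and miR-26 had the 4th smallest. No test of these differences in spread was made. The separation of the sexes in the sum was also lost with TMM scaling. Male library 1 then had 22071 CPM of miR-26a-5p and 6581 CPM of miR-26b-5p. Both were below every female library, whose lowest values were 22385 and 6871 CPM. Male library 2 stayed above every female library in both guides.

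**Figure D2:**
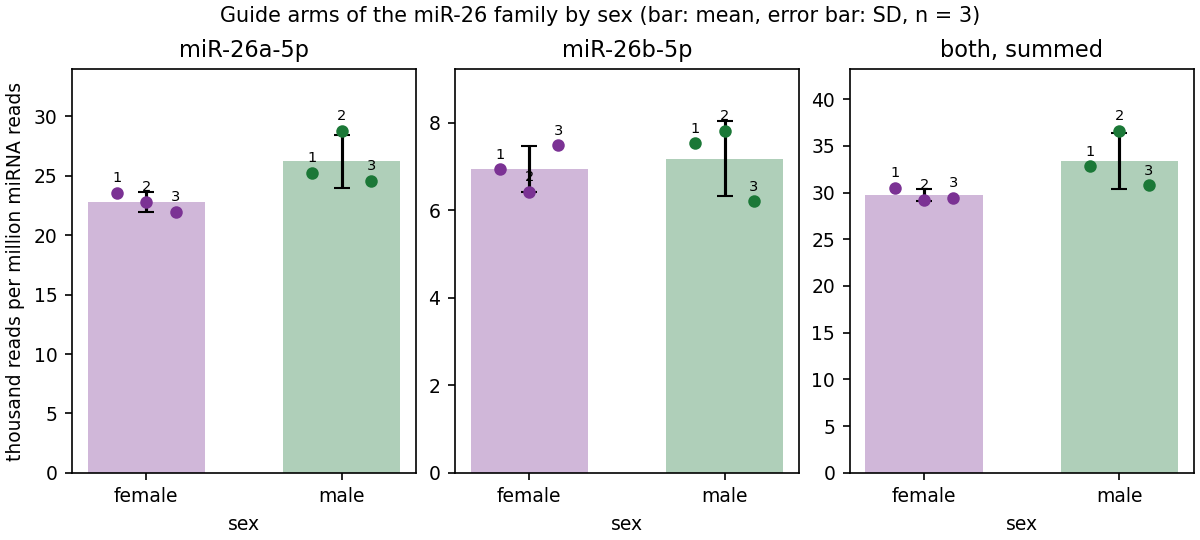
Level of miR-26a-5p, miR-26b-5p and their sum, in 1000 CPM, with bars for the mean and error bars for the SD of 3 libraries per sex and numbered points for the libraries. Male library 2 is the highest point in each panel, and only miR-26b-5p has male and female points that overlap. The points are CPM by library size, and with TMM scaling the sexes overlap in miR-26a-5p and in the sum too.

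The guides had 592 to 1524 times the summed reads of the passengers cut from the same precursors. miR-26a-2-3p, from the Ctdsp2 intron, was the most abundant of them, with 20.7, 15 and 19.6 CPM in the females and 16.6, 23.7 and 21.8 CPM in the males. The sexes overlapped, and 306 to 1040 reads stood behind each value. miR-26b-3p, from the Ctdsp1 intron, had 8.51, 10.1 and 8.85 CPM in the females and 12.5, 10.8 and 10.5 CPM in the males. Its male libraries were all above its female libraries, but the exact 95% intervals of female library 2 (9.28 to 10.9 CPM) and male library 3 (9.19 to 11.8 CPM) overlapped.

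miR-26a-1-3p, from the Ctdspl intron, was the rarest member. It had 74, 0 and 51 reads in the females, or 5.0, 0 and 1.42 CPM, and 35, 115 and 47 reads in the males, or 1.87, 2.62 and 1.99 CPM. By counting error alone, a count of 0 in female library 2 allows up to 3 reads, or 0.0505 CPM. The mean of the other 5 libraries would give 153.2 reads at that depth. The lack of reads was not particular to miR-26a-1-3p: of 190 miRNAs with a mean of 1 to 5 CPM in the other libraries, 100 (52.6%) had no read in female library 2, against 9.38% to 21.4% when the same was asked of each other library. Female library 2 had 47 miRNAs with 1 to 100 reads and the others 278 to 344. The 0 is therefore not taken as a bound on the level of miR-26a-1-3p.

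The 3p arms were used to compare the 2 precursors of miR-26a, whose guide reads cannot be assigned. miR-26a-2-3p had 4.14 and 13.7 times the reads of miR-26a-1-3p in female libraries 1 and 3, and from 8.89 to 10.98 times in the males. In female library 2, where low counts were missing in general, it had 888 reads beside 0, so no fold is given. miR-26a-2-3p had the more reads of the pair in all 6 libraries, with 80.5% (exact 95% interval 76.2 to 84.4) to 93.2% (91.2 to 94.9) of their reads outside female library 2. Female library 1 had the lowest share. The log2 ratio of miR-26a-1-3p to miR-26a-2-3p differed between the sexes by 2.28, higher in males and within the spread of the libraries (exact permutation test, two-sided, p = 0.7, adjusted p = 0.7 over 2 ratios, where 3 libraries against 3 cannot go below 0.1). Without female library 2 the difference was -0.35, so its direction rested on that library. These are steady levels of the passengers, and differences in their stability or in adaptor ligation between the sequences were not tested.

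The preference for the 5p arm was among the strongest arm preferences of the pairs compared. Over the 161 pairs of arms with a mean of at least 100 reads for each arm, the median absolute log2 ratio of 5p to 3p reads was 3.69. For miR-26a, with the 2 passengers summed, the mean log2 ratio was 10.16, or 1145-fold, and no pair exceeded it in size. For miR-26b it was 9.44, or 695-fold, which 6 pairs exceeded. Pairs with a rarer arm than this minimum were left out. Arms were paired by equal names, so other miRNAs whose 3p arms carry a locus number were left out too. Only miR-26a had such passengers summed, so the rank holds for these 161 alone.

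The arm ratio, not corrected for GC content, did not differ detectably by sex. For miR-26a the log2 ratio was 9.84, 10.57 and 10.03 in the females and 10.41, 10.10 and 10.01 in the males, a male minus female difference of 0.02 (95% interval -0.55 to 0.60, adjusted p = 0.965 by limma with Benjamini-Hochberg adjustment). The miR-26b ratio was 9.66, 9.32 and 9.72 in the females and 9.24, 9.50 and 9.21 in the males, a difference of -0.25 (95% interval -0.77 to 0.26, adjusted p = 0.539 by the same test). In both the sexes overlapped. Of the 161 pairs, 0 (0%) passed an adjusted p of 0.05 in limma, and 29 had an unadjusted p below 0.05, as a background to these values. For miR-26a, the difference turned negative without female library 1 (-0.13), female library 3 (-0.04) or male library 1 (-0.10). The arms of miR-26b differ in GC content, with 33.3% in the guide and 50% in the passenger. In the test of single miRNAs, the GC offset moved the log2 fold change of the guide from -0.07 to 0.42. That of the passenger moved from 0.16 to 0.0058. The arm ratio itself was not tested with the GC offset.

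**Figure D3:**
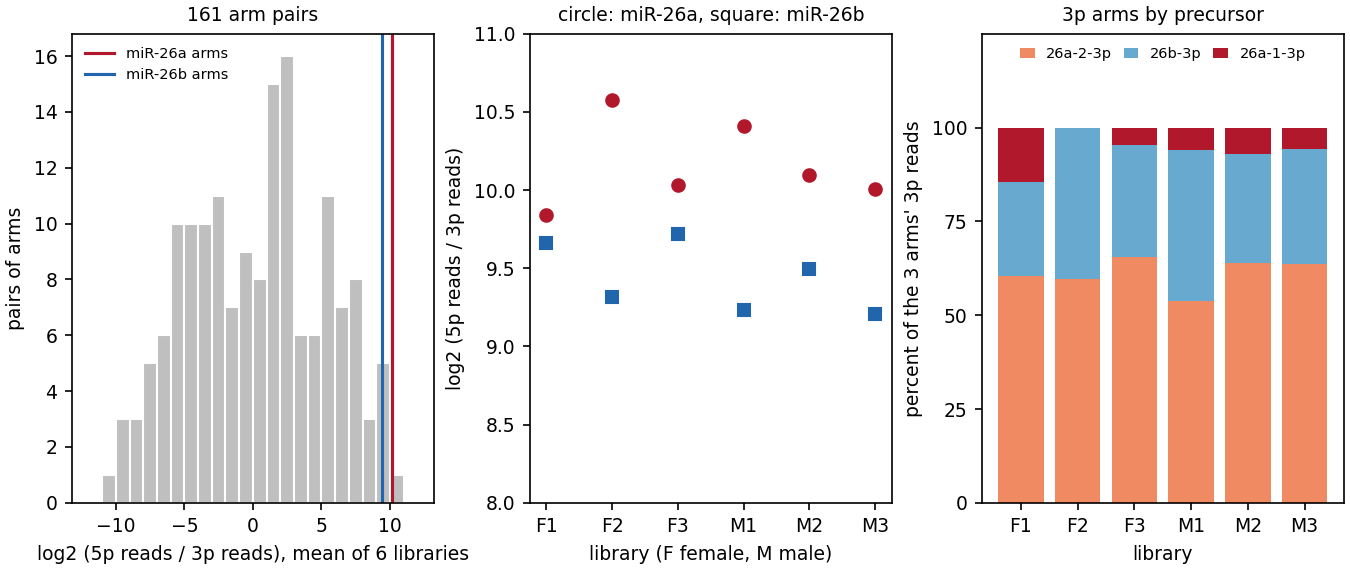
Left, mean log2 ratio of 5p to 3p reads over 6 libraries for 161 arm pairs (grey, number of pairs per bin), with miR-26a at 10.16 and miR-26b at 9.44 at the right end. Middle, the log2 ratio in each library (F female, M male; the axis starts at 8), where the circles (miR-26a) lie above the squares (miR-26b) in all 6; right, percent of the 3p reads of the 3 precursors, where miR-26a-2-3p takes the largest share in every library and miR-26a-1-3p is missing from F2.

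Sex was tested after TMM scaling by edgeR's quasi-likelihood test over 1120 miRNAs, those whose reads in all libraries together came to 10 or more, which kept all 5 members. None of the 5 members passed an adjusted p of 0.05 with Benjamini-Hochberg adjustment over all 1120, where 95 miRNAs, or 8.48%, did. At an unadjusted p below 0.05 the count for the members was also 0, and DESeq2 called 0. The median log2 fold change of the members, male over female, was 0.07, beside -0.02 over all miRNAs tested, and it was -0.01 without female library 2 and -0.10 without male library 2.

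The log2 fold change of miR-26a-5p was 0.08 with a standard error of 0.25 (adjusted p = 0.907 in edgeR's quasi-likelihood test), a fold of 1.06 with a 95% interval of 0.734 to 1.52. For miR-26b-5p it was -0.07 with a standard error of 0.22 (adjusted p = 0.897), a fold of 0.95 with a 95% interval of 0.694 to 1.30. With library size in place of TMM the value of miR-26b-5p was 0.05. Differences inside these unadjusted intervals are not excluded with 3 pools per sex. The intervals are not a limit of detection, since a call also needed to pass the adjustment over 1120 miRNAs. Among the 553 miRNAs averaging 100 reads or more, whose median absolute log2 fold change was 0.46, 9.04% had a smaller change in size than miR-26a-5p and 8.50% than miR-26b-5p.

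The passengers had wider intervals. miR-26a-2-3p had a log2 fold change of 0.07 (95% interval -0.81 to 0.95), miR-26b-3p 0.16 (-1.07 to 1.39) and miR-26a-1-3p -0.02 (-3.56 to 3.51), with adjusted p of 0.968, 0.928 and 0.998 in edgeR's quasi-likelihood test. The value of miR-26a-1-3p changed sign in 11 of 16 other settings, and was -0.61 without female library 2 and 1.51 without female library 1. For miR-26b-3p the interval was wide beside the spread of its own values. Its pooled within-sex SD was 0.13 on the log2 CPM scale by library size, against a median of 0.66 for the 253 miRNAs within 4-fold of its level. The within-sex SD of miR-26a-5p was 0.09 against a median of 0.20 for the 28 miRNAs within 4-fold of its level, and 3.57% of these were below it. For miR-26b-5p the SD was 0.15 against 0.20. These SDs are on CPM by library size. With TMM scaling the SD of miR-26a-5p was 0.18 against 0.23, with 35.7% below it, that of miR-26b-5p 0.17 against 0.25, and that of miR-26b-3p 0.17 against 0.63.

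**Figure D4:**
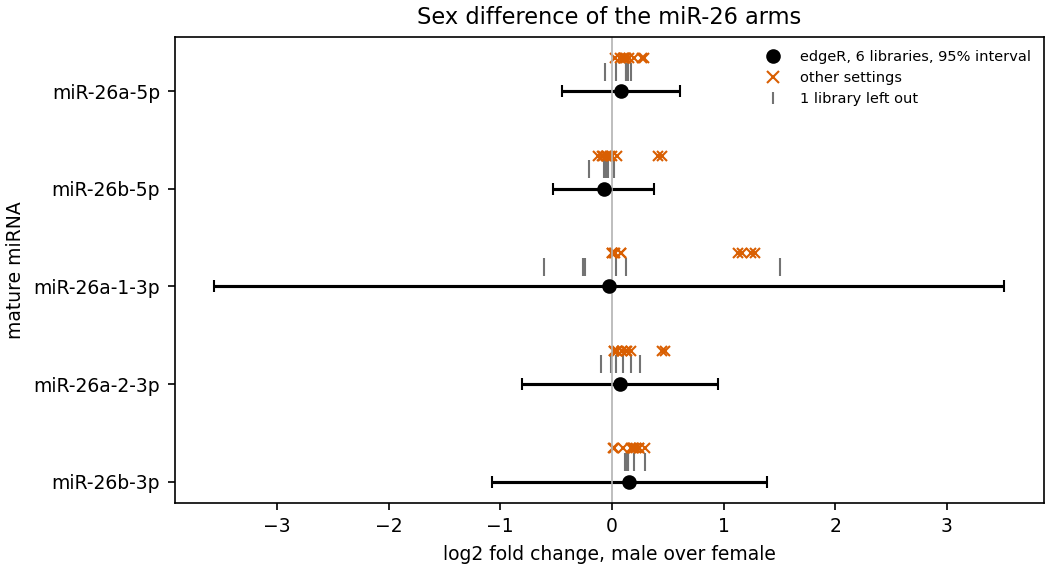
Log2 fold change, male over female, of each miR-26 arm in edgeR's quasi-likelihood test (black point with its 95% interval), under the other settings tried (crosses) and with 1 library left out (ticks). All 5 intervals cross 0, and that of miR-26a-1-3p spans -3.56 to 3.51.

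The separation of the sexes in miR-26a-5p depended on the scaling. On CPM by library size, 2 of the 5 members, miR-26a-5p and miR-26b-3p, had all male libraries above all female ones, where 23.9% of the 1120 miRNAs had no overlap. After TMM scaling 0 of 5 did, where 23.8% of all had none. The scaled values of miR-26a-5p were 23375, 25826 and 22385 CPM in the females and 22071, 29862 and 23728 CPM in the males, with the lowest and the highest value both male. Between library size and TMM the log2 fold changes moved by a median of 0.11 over all miRNAs, and that of miR-26a-5p was 0.20 with library size.

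Base composition was the choice that moved the guides most. miR-26b-5p has a GC content of 33.3% and miR-26a-5p of 40.9%. When GC content was corrected for library by library, the log2 fold change of miR-26b-5p was 0.42 in place of -0.07 (adjusted p = 0.518 in edgeR's quasi-likelihood test), and that of miR-26a-5p was 0.27 in place of 0.08 (adjusted p = 0.753). For miR-26a-2-3p, with a GC content of 36.4%, it was 0.47 in place of 0.07 (adjusted p = 0.608), and for miR-26b-3p, at 50% GC, it was 0.0058 in place of 0.16 (adjusted p = 0.997). The ratio of the guides within a library needs no scaling for depth, but it was not corrected for GC content. With the GC offset the log2 fold change of miR-26b-5p was above that of miR-26a-5p, and without the offset it was below. The log2 ratio of miR-26a-5p to miR-26b-5p averaged 1.72 ± 0.14 (SD, n = 3) over the female and 1.87 ± 0.12 (SD, n = 3) over the male libraries, a difference of 0.16 that was within their spread (exact permutation test, two-sided, p = 0.3, adjusted p = 0.6 over 2 ratios, smallest possible 0.1).

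Because the host phosphatases act with REST, miRNAs whose genes are known to carry REST binding sites were read beside the family. Of the 12 on this list, 0 rose and 3 fell in males relative to females by edgeR's quasi-likelihood test, where 5.27% of all 1120 miRNAs fell, with a median log2 fold change of -0.46 beside -0.02 over all miRNAs tested. The 4 most abundant were miR-9-5p with a log2 fold change of -0.36 (adjusted p = 0.555), miR-9-3p with -1.20 (adjusted p = 0.00508), miR-124-3p with -0.56 (adjusted p = 0.164) and miR-135b-5p with -1.22 (adjusted p = 0.00015). The third to pass was miR-153-3p with -3.15 (adjusted p = 1.2e-05), named after its value was seen. Without female library 2 the count that fell was 4 of 12, and it was 2 of 12 without male library 1 or with the GC offset and 6 of 12 with 1 RUVr factor in DESeq2. The guides of miR-26 had values of 0.08 and -0.07 in the same fit. The 5 brain markers, which share miR-9-5p and miR-124-3p with the REST list, had a median of -0.56, from -2.33 to -0.09. Both arms of miR-9, miR-124, miR-132 and miR-212 are on the REST list, so its 12 members do not come from 12 hairpins. No difference between the lists was tested.

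The miRNAs with the most similar profile to each member over the 6 libraries were found by Pearson's correlation of log2 CPM among 549 miRNAs averaging 100 reads or more, as a description that rests on 6 points sharing their libraries and depths. For miR-26a-5p they were miR-487b-3p (r = 0.918), let-7d-5p (0.904) and miR-674-5p (0.903). For miR-26b-5p none reached 0.9, and the nearest were miR-7224-3p (0.796) and miR-669a-5p and miR-669p-5p (both 0.780), which have the same count as each other in every library and so cannot be told apart. The guides had an r of 0.427 with each other. miR-26b-5p and miR-26b-3p, arms of 1 hairpin, had 0.182. miR-26b-3p was nearest to miR-139-3p (0.983), miR-770-3p (0.972) and miR-1306-5p (0.955), and miR-26a-2-3p to miR-15b-3p (0.965), miR-672-3p (0.956) and miR-323-5p (0.903). miR-26a-1-3p was nearest to miR-339-5p (0.987), miR-182-3p (0.981) and miR-32-3p (0.976), and its lowest point was the 0 in female library 2.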

How the data were processed

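Small RNA-seq had been performed on 6 libraries of E15.5 brain RNA, 3 per sex. The authors trimmed adaptors with cutadapt 1.15, checked quality with FastQC, mapped with Bowtie 1.2.1 to miRBase v.21 and mm9 and ran the miRDeep2 workflow. The deposited values are read counts per mature miRNA, without normalization. How many mismatches the quantification allowed, which decides how cleanly miR-26a-5p and miR-26b-5p separate, is not given in the sources used here.

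R 4.3.3 was used, with DESeq2 1.42.0, edgeR 4.0.16 and limma 3.58.1 as packages. Only miRNAs totalling at least 10 reads were tested. TMM scaling preceded edgeR's quasi-likelihood test for sex, and p-values were adjusted by Benjamini-Hochberg and called at 0.05. Each standard error is the absolute log2 fold change over the square root of F, and 95% intervals use the test's degrees of freedom. Arm ratios are log2((5p + 0.5)/(3p + 0.5)), tested with limma with a trend over pairs of the same name and a mean of at least 100 reads for each arm. For miR-26a alone, the 3p reads were those of its 2 passengers summed. Log2 CPM had a prior count of 2. The GC offset is a loess curve (span 0.75) per library on mature sequences from RefSeq, which covered 84.9% of the miRNAs tested. The named miRNAs are the members, the 4 most abundant of the REST list, the 3 nearest profiles to each member and the neighbours in rank. Some miRNAs of the tissue lists are named as well. Members and lists (REST and markers of brain, muscle, epithelium, mesenchyme, red blood cells, Hox clusters and vessels) were chosen with earlier results of these data known. Between any pair of libraries at most 0.21% of miRNAs over 100 reads had equal counts. Procedures were tested on simulated data. Alternatives were other scalings, DESeq2, 1 RUVr factor, other filters, the GC offset, a replicate block and each library left out. The counts of each list under these settings and the spread with TMM scaling were added after seeing the data.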

Additional observations from a re-analysis of the deposited data

How the results depend on the processing

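No member passed the threshold in any of 84 combinations of a member and 1 of 17 settings, and the lowest adjusted p was 0.264 (miR-26b-5p, GC offset with replicate block). The log2 fold change changed sign in 19 of the 84, 11 of them for miR-26a-1-3p. For that member it was 0.020 with library size, 0.086 with upper quartile scaling, 0.027 with no filter, 0.083 with the GC offset, 1.13 with the replicate block, 1.25 with both, 1.17 and 1.28 with 1 RUVr factor in edgeR and DESeq2, and -0.61 to 1.51 with 1 library left out. At least 10 reads in every library leaves it out. For miR-26b-5p the value was 0.048 with library size, 0.0016 with no filter, 0.42 with the GC offset and 0.45 with the GC offset and the block, and it ranged from -0.21 to 0.017 with 1 library left out. Leaving out 1 library gave -0.059 to 0.17 for miR-26a-5p, negative only without male library 2, and -0.10 to 0.26 for miR-26a-2-3p, negative without female library 2 or male library 2. miR-26b-3p stayed positive in all 17 settings. The sex difference of the miR-26a arm ratio ranged from -0.13 to 0.24, and that of the ratio of miR-26a-1-3p to miR-26a-2-3p from -0.35 to 4.03. No member's pair is left with a mean of at least 1000 reads per arm. The causes were not tested.

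The number of miRNAs called for sex was 95, and it was 189 and 216 with 1 RUVr factor in edgeR and DESeq2, 92 with the replicate block, and 30 (without male library 1) to 203 (without female library 2) with 1 library left out, with 60 without female library 3. With library size, 50 of 89 calls were male-biased, against 36 of 95 with TMM. Same-numbered libraries had correlations of -0.08, 0.03 and 0.16 in their deviations from the sex means over 553 miRNAs and not every library was closest to its own number, so the numbers were not taken to pair the samples. The block changed no member's call. miR-26a-1-3p rested on 0 to 115 reads per library, which limits its precision.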
